A study of Homo sapiens with 18 samples.

Results

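The 35 genes described here encode the contents of neuroendocrine secretory granules and the machinery that fuses granules and synaptic vesicles with the cell surface. They were chosen by symbol, as a list of 35 among the 28063 genes in each count table, with earlier results of these data known. Shares of members called, given below beside those of all genes, are therefore descriptive. A group of 13 covers granule cargo and peptide processing, and the other 22 cover vesicle fusion. The cargo group holds the 6 granin-family genes CHGA, CHGB, SCG2, SCG3, SCG5 and VGF, the 4 processing genes PCSK1, PCSK2, PCSK1N and CPE, and the 3 peptide genes NPY, GAL and VIP. The fusion group holds 4 synaptotagmins (SYT1, SYT4, SYT11, SYT17), 4 vesicle proteins (SYP, SYN1, SV2A, SCAMP5), 7 genes of the SNARE machinery (SNAP25, STX1A, VAMP1, VAMP2, NSF, CPLX1, CPLX2) and 7 docking and priming genes (RAB3A, RAB3C, RPH3A, UNC13A, RIMS2, CADPS, CADPS2).

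The series counted newly made RNA, labelled with 4-thiouridine (4sU), in human neuroblastoma cells. The established MYCN-amplified lines IMR-32, KELLY and SK-N-DZ were exposed to DMSO or to 1 uM BRM014, which inhibits the chromatin remodelling ATPases SMARCA4 and SMARCA2. An IMR-32 derivative whose SMARCA4 carries an auxin-inducible degron tag (SMARCA4-mAID) was exposed to 500 uM auxin, which marks the tagged protein for destruction, or ethanol. These 8 groups, with 2 libraries each, had 500 uM 4sU for 2 h before harvest, and 2 more KELLY libraries were left unlabelled as background. The time in BRM014 or auxin, and whether the tagged line is 1 clone, are not stated in the sources used here.

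Neuroendocrine cells, including the sympathetic cells from which neuroblastoma arises, store peptides in dense-core granules. Granins help to load the granule, prohormone convertases and carboxypeptidase E cut precursors into active peptides, and a rise in calcium triggers release. Some synaptotagmins sense the calcium, SNARE proteins pull vesicle and cell membrane together, and complexins clamp and assist the SNAREs. RAB3 proteins with RIM, UNC13 and CADPS proteins dock and prime the vesicle. Granins and peptides such as galanin are known products of neuroblastoma, and chromogranin A is used as a marker of neuroendocrine tumours.

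RefSeq promoter windows (GRCh38.p14, 250 bases before to 50 after the annotated start) were found for 27 of the 35 genes. There was none for CHGB, SCG2, GAL, SYT17, SNAP25, CPLX1, RIMS2 and CADPS2. The 250 bases before the RefSeq start are shown for 5 genes. CHGA, VGF and SYN1 were chosen because they hold the cyclic AMP response element (CRE), and CPLX2 and SYT1 because their RNA moved in all 3 lines. Each is printed 5′ to 3′ on the gene's strand, and capitals mark the CRE, TGACGTCA, and the left part of the RE1 element, bound by the neuronal repressor REST, TTCAGCACC.
CHGA: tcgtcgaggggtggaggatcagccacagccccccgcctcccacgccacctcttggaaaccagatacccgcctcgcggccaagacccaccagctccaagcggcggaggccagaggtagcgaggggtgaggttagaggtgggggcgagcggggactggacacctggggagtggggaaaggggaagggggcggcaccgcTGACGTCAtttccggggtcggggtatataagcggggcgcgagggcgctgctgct
VGF: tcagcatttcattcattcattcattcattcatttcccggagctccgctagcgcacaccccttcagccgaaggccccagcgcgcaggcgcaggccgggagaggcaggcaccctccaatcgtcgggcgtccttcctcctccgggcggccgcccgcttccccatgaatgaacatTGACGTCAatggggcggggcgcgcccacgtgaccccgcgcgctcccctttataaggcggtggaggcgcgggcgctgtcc
SYN1: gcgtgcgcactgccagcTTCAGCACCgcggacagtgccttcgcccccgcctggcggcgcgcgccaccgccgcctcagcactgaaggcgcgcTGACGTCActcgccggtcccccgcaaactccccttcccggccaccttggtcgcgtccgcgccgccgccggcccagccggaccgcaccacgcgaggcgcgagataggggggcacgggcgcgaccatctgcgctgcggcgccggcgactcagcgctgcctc
CPLX2: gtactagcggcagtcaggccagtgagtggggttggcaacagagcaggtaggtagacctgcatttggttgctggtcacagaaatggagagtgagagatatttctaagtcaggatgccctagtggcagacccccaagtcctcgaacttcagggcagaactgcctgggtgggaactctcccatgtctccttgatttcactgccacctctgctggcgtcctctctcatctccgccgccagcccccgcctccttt
SYT1: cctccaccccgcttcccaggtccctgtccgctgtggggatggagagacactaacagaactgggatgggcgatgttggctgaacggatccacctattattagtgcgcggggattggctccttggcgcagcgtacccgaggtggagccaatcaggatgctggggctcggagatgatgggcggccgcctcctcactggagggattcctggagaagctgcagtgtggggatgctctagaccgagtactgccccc
In that order the stretches are chr14:92922900-92923149 on the plus strand, chr7:101165570-101165819 on the minus strand, chrX:47619858-47620107 on the minus strand, chr5:175796283-175796532 on the plus strand and chr12:78864524-78864773 on the plus strand. The CRE begins at -54 from the start in CHGA, -79 in VGF and -159 in SYN1, and at -77 in PCSK1, which is not shown.

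Across the full windows and on both strands, the CRE was in 4 of the 27 promoters, against 1.85% of all 35116 windows. Its first 5 bases, TGACG, which every CRE contains, was in 15 of 27 and in 24.55% of all windows. This part of RE1 was in 3 (SCG3, SYN1 and UNC13A; 0.376% of all windows), the AP-1 motif TGANTCA in 2 (PCSK1N and SYP; 7.71%) and the E-box CACGTG in 2 (UNC13A and VGF; 7.26%). The TATA box TATAAA, searched on the gene's strand only, was in 2 (PCSK1 and VIP; 7.33%). CPLX2 and SYT1 held none of these letters in their windows, but the SYT1 window lies inside the gene by its GENCODE position. These matches describe sequence only.

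Nothing in the labels ties the 2 libraries of each group to separate cultures, so the p-values measure only the spread between libraries, which may be technical. With 2 libraries per group, treated and control libraries often separate for unchanged genes too, so statements below on overlap are descriptive only. Labelled libraries held 724913 to 1740475 gene counts. BRM014 libraries were the smallest in IMR-32 (741970 and 775064) and SK-N-DZ (724913 and 758288), so values of weakly expressed genes are least certain there. The unlabelled KELLY libraries held 5395 and 4432 counts. Over the 35 genes they held 49 counts against 7257 in labelled KELLY DMSO cells, or 0.675%, against 0.348% over all genes. CHGA took 29 of those 49 counts, 5.23% of its labelled counts, and 23 of the 35 genes had none. RAB3A was at 4% on 2 counts, and each of the other genes with labelled counts was at 1.72% or less. The 7 noradrenergic markers PHOX2A, HAND2, GATA3, ISL1, TH, DBH and MYCN summed to between 5632 and 12527 CPM (counts per 1e6 counts of tested genes) in every labelled library, with 5 to 7 detected. In IMR-32 and its degron derivative, however, TH had 0 or 1 count and DBH 0 to 7 counts per group. Mesenchymal and Schwann markers summed to between 177 and 508 CPM with 5 to 7 of 11 detected, and the Schwann markers S100B and CDH19 had 0 counts in all libraries.

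In vehicle-treated cells the lines differed in their newly made RNA for granule cargo. CHGA was highest in KELLY, NPY was read mainly in SK-N-DZ, VIP was highest in IMR-32 and GAL was lowest in SK-N-DZ, whereas SCG2 was abundant in all 3 lines. Levels differed among the 3 DMSO groups for 23 of the 31 members that passed the filter on low counts (74.2%), against 58% of all genes tested (edgeR quasi-likelihood F test, Benjamini-Hochberg adjusted p below 0.05, the threshold for every call below). These were 9 of 10 tested cargo genes, all but CPE, and 14 of 21 fusion genes. NPY passed the filter through SK-N-DZ and SCG5 through KELLY, the lines where they are high. For such genes a difference among lines was close to fixed in advance, so these counts do not compare cargo with other genes. PCSK1, PCSK2, PCSK1N and CADPS2 did not pass the filter. By pairs, 13 members were higher and 4 lower in KELLY than in IMR-32 (39.6% of all genes called), 8 higher and 6 lower in SK-N-DZ than in IMR-32 (44.1%), and 4 higher and 10 lower in SK-N-DZ than in KELLY (31.8%). The share of SK-N-DZ against IMR-32, 14 of 31 (45.2%), is close to that of all genes.

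Chromogranin A (CHGA, chromosome 14, 92923080 to 92935293) stood at 187 and 185 CPM in the 2 KELLY libraries. SK-N-DZ had 35.9 and 42.4 CPM, and IMR-32 had 8.82 and 18.3. The 3 lines did not overlap, and the log2 difference of KELLY over IMR-32 was 3.80 (SE 0.39, edgeR adjusted p = 2.4e-14). Chromogranin B (CHGB), its companion granin, was at 77.9 and 82.9 CPM in KELLY, against 14.4 and 22.6 in SK-N-DZ and, for IMR-32, 14 and 20.1. Only KELLY stood apart for CHGB, by 2.25 over IMR-32 (SE 0.38, edgeR adjusted p = 8.7e-07). Secretogranin II (SCG2, chromosome 2, 223596940 to 223602503), the precursor of secretoneurin, was at 132 CPM in both IMR-32 libraries, while KELLY had 192 and 144 and SK-N-DZ 216 and 189. Its levels lay within 0.62 log2 units of each other across lines. VGF, a growth-factor-induced granin-like precursor, was at 25.8 and 21.3 CPM in KELLY and at 15 and 19.3 in SK-N-DZ, but at 2.21 and 1.83 in IMR-32. SCG3, a granin-binding protein of the granule membrane, was lower in SK-N-DZ (52.7 and 46.8 CPM) than in IMR-32 (83.1 and 102), by 0.89 on the log2 scale. SCG5, a chaperone of the convertase PCSK2, was near the detection limit, with 17 counts in KELLY, 4 in IMR-32 and 0 in SK-N-DZ, where it was at least 6.62-fold lower than in KELLY. Folds against a group at 0 use a floor of 3 counts for that group as a whole.

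Neuropeptide Y (NPY) had 125 counts in SK-N-DZ, 11 in KELLY and 0 in IMR-32, and so was at least 29.3-fold higher in SK-N-DZ than in IMR-32. Galanin (GAL, chromosome 11, 68683779 to 68691175), a neuropeptide, was at 58.1 and 54.9 CPM in IMR-32, while KELLY had 42 and 33.5 and SK-N-DZ 18 and 11. The latter was lower for GAL than either other line, by 1.96 and 1.39 on the log2 scale, while KELLY and IMR-32 differed by 0.58 (SE 0.36), which was not called. Vasoactive intestinal peptide (VIP) had 43 counts in IMR-32, 8 in KELLY and 0 in SK-N-DZ, at least 20.4-fold lower than in IMR-32. Carboxypeptidase E (CPE) was the one processing enzyme read in every library, at 22.8 and 29.7 CPM for KELLY, 34.1 and 20.4 for SK-N-DZ and 36.8 and 48.5 for IMR-32. The prohormone convertases PCSK1 and PCSK2 had 0 counts in KELLY and SK-N-DZ with DMSO and 2 and 3 in IMR-32. PCSK1N, an inhibitor of PCSK1, had 19 counts in SK-N-DZ, 4 in IMR-32 and 0 in KELLY.

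Among fusion genes the synaptotagmins were all called as different. SYT1 (chromosome 12, 78863993 to 79452008), the fast calcium sensor of synaptic vesicles, was at 739 and 689 CPM in IMR-32 and 473 and 486 in SK-N-DZ, but at 130 and 122 in KELLY. KELLY was below IMR-32 by 2.50 on the log2 scale (SE 0.12, edgeR adjusted p = 4.3e-35). SYT4, a synaptotagmin of dense-core vesicles, was highest in KELLY, with 239 and 210 CPM against 140 and 127 in IMR-32 and 119 and 93.1 in SK-N-DZ. SYT11, which does not bind calcium, was lowest in IMR-32 (242 and 213 CPM) and stood at 489 in both KELLY libraries and at 413 and 440 in SK-N-DZ. SYT17 (chromosome 16, 19167971 to 19268334), an atypical member of the family, had 0 counts in KELLY but 83 in IMR-32 and 144 in SK-N-DZ, at least 33.6-fold and 41.1-fold higher. The rabphilin gene RPH3A, a RAB3 effector, had 78 counts in KELLY, 22 in IMR-32 and 0 in SK-N-DZ, at least 30.4-fold lower than in KELLY. Complexin 2 (CPLX2, chromosome 5, 175796310 to 175884020) was highest in IMR-32, at 249 and 211 CPM. SK-N-DZ had 163 and 149 CPM, and KELLY had 121 and 115. Of the rest, SYP, SV2A, SNAP25, VAMP2, UNC13A, RIMS2 and CADPS were called higher in KELLY than in IMR-32, with log2 differences of 0.81 (SNAP25) to 1.86 (CADPS). This was not particular to KELLY for all of them. The scaled count ratio of SK-N-DZ over IMR-32 ran from 1.17 (VAMP2) to 4.00 (CADPS), and 3 docking and priming genes were called higher there. For CADPS and RIMS2 that ratio was 4.00 and 2.87, against 3.60 and 2.92 for KELLY over IMR-32. VAMP1 was lower in SK-N-DZ than in KELLY by 1.34. SYN1, SCAMP5, STX1A, NSF, CPLX1, RAB3A and RAB3C were not called, and CADPS2 had 0 counts in all libraries.

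Per kilobase of transcript, which allows genes to be ranked against each other, the order of levels also differed. SYT1 led in IMR-32 at 149 CPM per kilobase (mean of 2 libraries), followed by GAL at 69.1 and SCG2 at 51.1. In KELLY SYT11 at 93.4 and CHGA at 90.1 CPM per kilobase led, and SCG2 followed at 65.1. In SK-N-DZ the leaders were SYT1 at 99.7, SYT11 at 81.3, SCG2 at 78.6 and NPY at 50.6 CPM per kilobase.

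**Figure D1:**
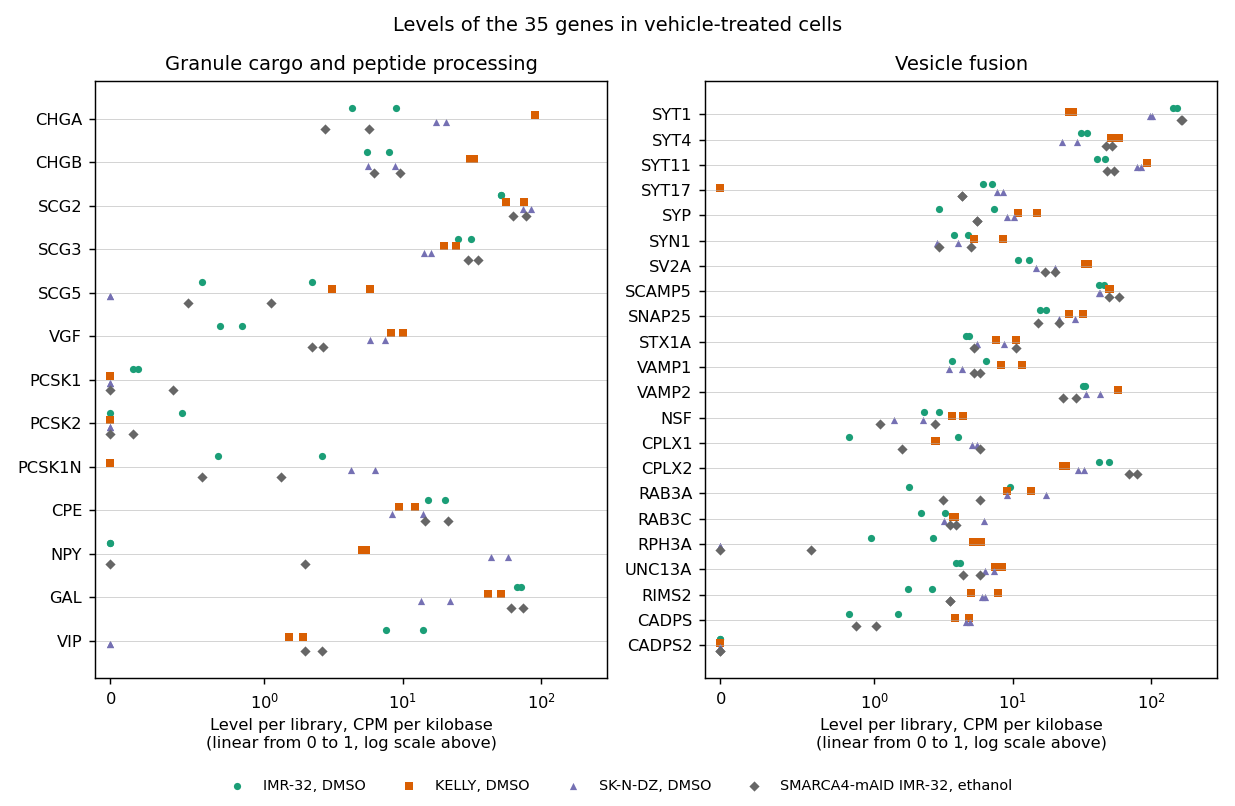
Level of each of the 35 genes in every vehicle-treated library, in CPM per kilobase of transcript, on an axis that is linear from 0 to 1 and logarithmic above. Points are single libraries and symbols are lines. CHGA and CHGB sit highest in KELLY, NPY in SK-N-DZ, SYT1 lowest in KELLY, and SYT17 lies at 0 in KELLY.

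With BRM014, secretogranin II, galanin and complexin 2 fell in all 3 lines and chromogranin A fell in KELLY and SK-N-DZ, while SYT1 rose in KELLY and SK-N-DZ and fell in IMR-32. The calls for galanin and SYT1 in IMR-32 and for chromogranin A in SK-N-DZ were lost in some alternative fits, given below. In IMR-32 6 of the 31 tested members were called (19.4%), 1 higher and 5 lower, against 12.8% of all genes. In KELLY 7 were called (22.6%), 2 higher and 5 lower, against 11.6% of all genes. In SK-N-DZ 8 were called (25.8%), 3 higher and 5 lower, against 19.4% of all genes. Because the members were chosen with earlier results known, an excess over all genes carries no test. No cargo gene was called higher in any line by edgeR, fitted to all 16 labelled libraries, or by DESeq2, while 2 edgeR alternatives called CPE higher in IMR-32, as given below. DESeq2 gave no adjusted p for 5 tested members in IMR-32, 2 in KELLY and 1 in SK-N-DZ, so it could not call these. At an unadjusted p under 0.05, edgeR put 2 cargo genes higher in IMR-32 (CPE and VGF) and 0 in the other lines. Among the cargo genes 2 of 10 in IMR-32, 3 of 10 in KELLY and 3 of 10 in SK-N-DZ were called lower, where 6.57%, 4.98% and 9.55% of all genes were. Of the 21 fusion genes, IMR-32 had 1 higher and 3 lower, KELLY 2 higher and 2 lower, and SK-N-DZ 3 higher and 2 lower, where 6.26%, 6.57% and 9.88% of all genes were called higher. The median log2 change of the tested cargo genes was -0.43, -0.78 and -0.68 in the 3 lines, that of the fusion genes -0.15, 0 and -0.03, and that of all genes -0.02, 0 and -0.04. Without cargo genes that had too few counts for a fold, the cargo medians were -0.55 over 9 genes, -0.78 over 10 and -1.26 over 8. A correction for transcript GC content and length lowered the share of higher calls among all called genes from 48.8% to 37.2% in IMR-32, from 56.9% to 42.6% in KELLY and from 50.8% to 35.5% in SK-N-DZ, and the calls it removes among the members are named below.

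**Figure D2:**
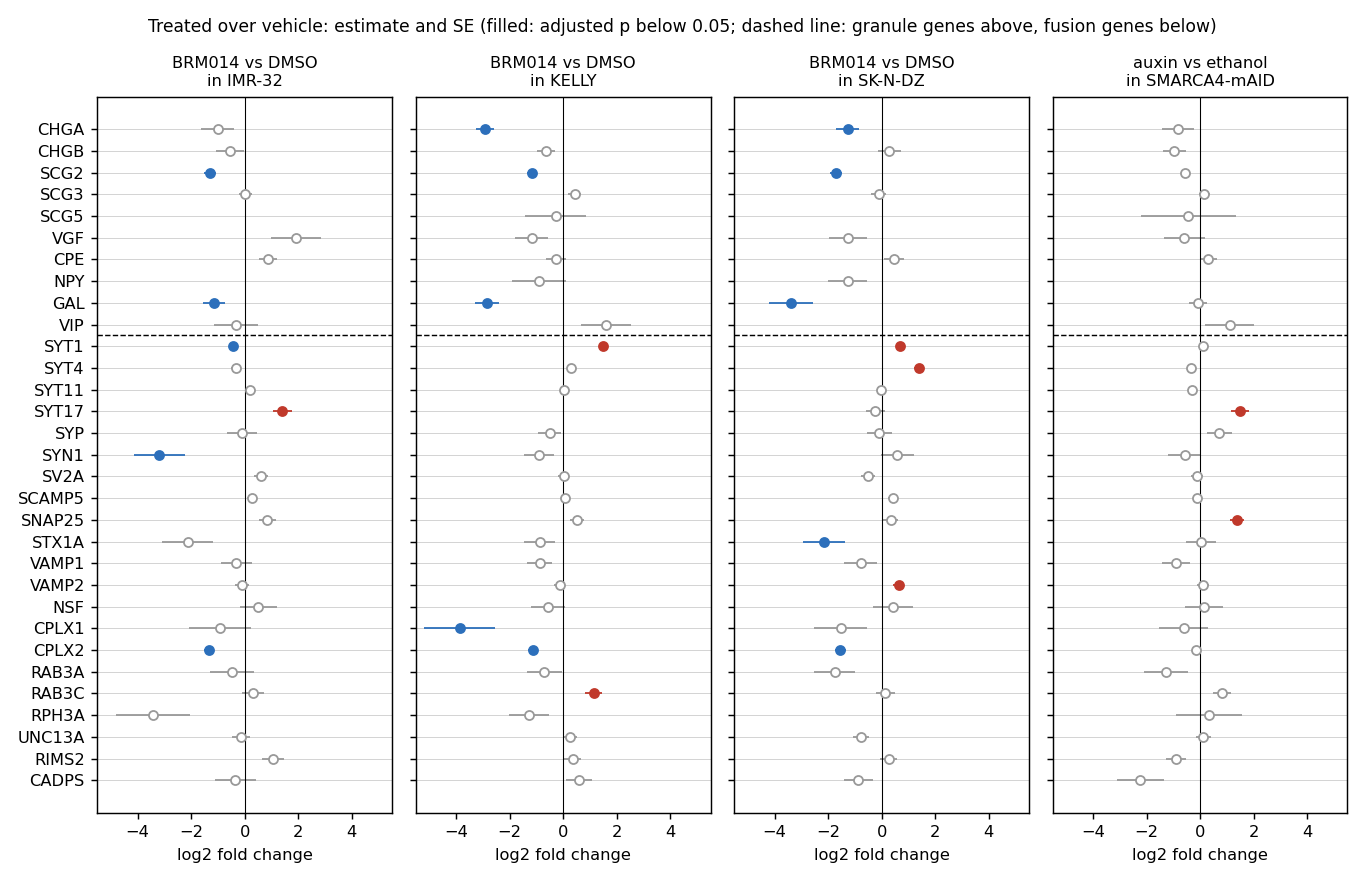
Log2 fold change (x axis) of each tested gene in the 4 treated against vehicle comparisons, with the standard error as a bar. Filled points passed the test (red higher, blue lower), genes with 0 counts in either group are left out, and the dashed line parts cargo genes (above) from fusion genes (below). SCG2 and CPLX2 are blue in all 3 BRM014 panels, and SYT1 is red in 2 and blue in 1.

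SCG2 went from 132 CPM in both DMSO libraries to 60.4 and 46.4 in IMR-32, from 192 and 144 to 64.7 and 85.8 in KELLY, and from 216 and 189 to 75.8 and 49.3 in SK-N-DZ. Treated and control libraries did not overlap in any line. The log2 changes were -1.30 (SE 0.24, edgeR adjusted p = 1.5e-05), -1.16 (SE 0.19, adjusted p = 1.4e-06) and -1.70 (SE 0.21, adjusted p = 4.8e-10). The test of a difference among lines gave an adjusted p of 0.52.

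CHGA fell in KELLY from 187 and 185 CPM to 16.3 and 32.7, a log2 change of -2.92 (SE 0.35, edgeR adjusted p = 7.3e-11). BRM014-treated KELLY cells held 76 CHGA counts, and the 2 unlabelled libraries 29. The part of unlabelled RNA in the remaining counts was not tested. In SK-N-DZ CHGA fell from 35.9 and 42.4 CPM to 16 and 16.4, by 1.27 (SE 0.43, edgeR adjusted p = 0.026). This second call was lost with DESeq2 (adjusted p = 0.18), with the correction for GC content and length (-0.70, adjusted p = 0.32), and without either BRM014 library or DMSO replicate 2 (-1.29 to -1.15). In IMR-32 the counts were low, 12 and 20 with DMSO against 7 and 2 with BRM014, and the value of -1.02 (SE 0.63) was not called. Of the other granins none was called in any line. CHGB stood at -0.55, -0.65 and 0.29, SCG3 at 0.02, 0.42 and -0.11, and VGF at 1.91, -1.18 and -1.26 with standard errors of 0.61 to 0.92. SCG5 was at -0.29 (SE 1.15) in KELLY and had too few counts elsewhere.

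GAL fell in KELLY from 42.0 and 33.5 CPM to 7.84 and 2.56, a log2 change of -2.85 (SE 0.47, edgeR adjusted p = 1.2e-06). Without BRM014 replicate 1 the value was -3.84 and without replicate 2 it was -2.26, both called. In SK-N-DZ it went from 30 and 20 counts to 1 and 1. After scaling for library size it was lower by a factor of 11.1 (95% counting interval 2.91 to 94.0, edgeR adjusted p = 0.00099). In IMR-32 GAL went from 58.1 and 54.9 CPM to 29.5 and 21.1, by -1.16 (SE 0.41, adjusted p = 0.046). This GAL call was lost with DESeq2 (adjusted p = 0.054) and with the GC and length correction (-0.80). It was also lost without any 1 of the 4 libraries (-1.42 to -0.94). NPY was not called: in SK-N-DZ it went from 30.5 and 40.8 CPM to 6.65 and 22.7 (-1.27, SE 0.73), with a call only where these 4 libraries were fitted alone (adjusted p = 0.031). The NPY value was -0.65 without BRM014 replicate 1 and -2.41 without replicate 2. In KELLY NPY had 11 counts with DMSO and 6 with BRM014. VIP was not called either, with values of -0.32 in IMR-32 and 1.61 (SE 0.93) in KELLY. CPE went from 36.8 and 48.5 CPM to 50.1 and 105 in IMR-32. The value of 0.88 (SE 0.34, adjusted p = 0.078) was not called, but was without BRM014 replicate 1 (1.31, adjusted p = 0.020), while without replicate 2 it was 0.24 (adjusted p = 0.81). It was also called with only the IMR-32 libraries (adjusted p = 0.042). In KELLY CPE stood at -0.29, and in SK-N-DZ at 0.44. The convertases stayed at 7 counts or fewer in each BRM014 group.

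Among the synaptotagmins SYT1 moved in opposite directions. It went from 739 and 689 CPM to 525 and 538 in IMR-32, from 130 and 122 to 386 and 315 in KELLY, and from 473 and 486 to 821 and 731 in SK-N-DZ. No group overlapped with its control. The log2 changes were -0.43 (SE 0.11, edgeR adjusted p = 0.0026), 1.47 (SE 0.12, adjusted p = 5.4e-19) and 0.69 (SE 0.10, adjusted p = 1e-07). The fall in IMR-32 was the smallest of these, and without DMSO replicate 1 it was -0.38 (adjusted p = 0.067). SYT4 rose in SK-N-DZ from 119 and 93.1 CPM to 300.4 and 250.1, by 1.38 (SE 0.16, adjusted p = 3.9e-11), and stood at 0.30 (SE 0.15) in KELLY and -0.31 (SE 0.19) in IMR-32. SYT1 and SYT4 were the 2 of 31 members (6.45%) whose BRM014 effect differed among lines (edgeR interaction test, adjusted p = 1.31e-16 and 2.75e-07), against 6.47% of all genes, a share close to that of all genes. For CHGA the adjusted p was 0.069, but 0.035 with only the libraries of these lines, 0.040 with the GC and length correction, 0.033 with the replicate block and 0.016 with both, against 0.39 with DESeq2. CHGA was also called without IMR-32 BRM014 replicate 2 (0.034), IMR-32 DMSO replicate 2 (0.049) or KELLY BRM014 replicate 2 (0.022), each an adjusted p. GAL (adjusted p = 0.12) was called without KELLY BRM014 replicate 1 (0.049), and SYN1 (adjusted p = 0.074) without SK-N-DZ BRM014 replicate 2 (0.031). SYT17 rose in IMR-32 from 36.0 and 31.1 CPM to 86.9 and 91.3, by 1.40 (SE 0.35, adjusted p = 0.0029), was at -0.24 (SE 0.37) in SK-N-DZ and had 0 counts in KELLY with either treatment. SYT11 stayed within 0.21 of its control in each line and was not called.

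**Figure D3:**
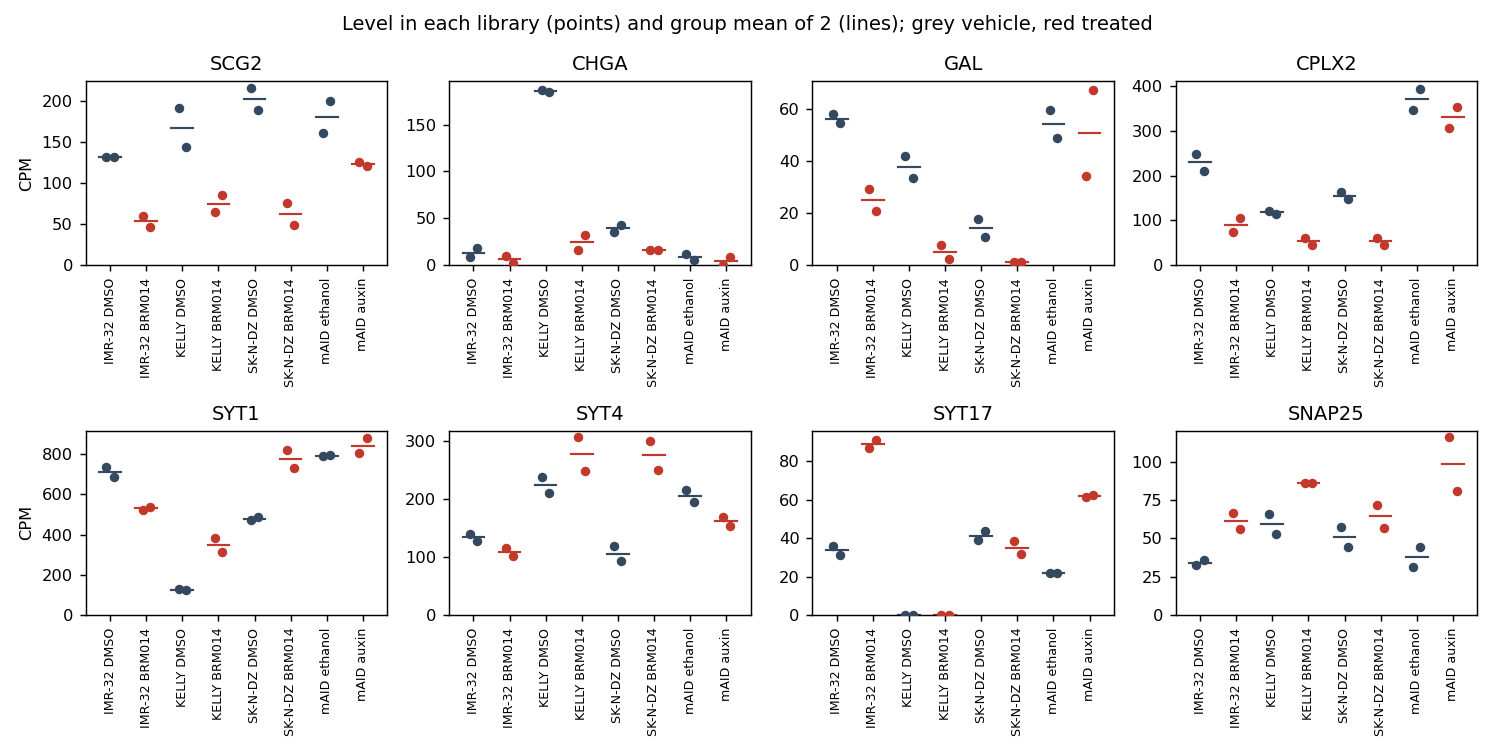
Level in CPM (y axis, from 0) of 8 genes in each of the 16 labelled libraries. Points are libraries, lines are means of 2, and treated groups are red. SCG2 and CPLX2 lie lower with BRM014 in each line, SYT1 lies higher in KELLY and SK-N-DZ and lower in IMR-32, and SYT17 and SNAP25 lie higher with auxin.

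In the SNARE machinery complexin 2 fell in each line. CPLX2 went from 249 and 211 CPM to 75.1 and 105 in IMR-32, from 121 and 115 to 60.8 and 46.1 in KELLY, and from 163 and 149 to 61.1 and 45.5 in SK-N-DZ. Treated and control libraries did not overlap, and the log2 changes were -1.35 (SE 0.19, edgeR adjusted p = 1.7e-08), -1.14 (SE 0.18, adjusted p = 7.8e-07) and -1.55 (SE 0.20, adjusted p = 1.7e-09). Its paralogue CPLX1 was near the detection limit, with 18 counts in KELLY DMSO cells and 1 with BRM014. That ratio of 18.7 has a 95% counting interval of 2.95 to 778, and the call (edgeR adjusted p = 0.045) was lost without any 1 library, with only the KELLY libraries (adjusted p = 0.10), with the replicate block (0.058), with the GC and length correction (0.11) and with both (0.13). Without BRM014 replicate 2, which held the 1 count, the fitted value was -5.98, and without replicate 1 it was -3.06. Syntaxin 1A (STX1A), the membrane SNARE, fell in SK-N-DZ from 30 and 21 counts to 0 and 5, a log2 change of -2.16 (SE 0.79, adjusted p = 0.041). The STX1A call was lost with the GC and length correction (-1.70, adjusted p = 0.16), and the value was -1.21 (adjusted p = 0.41) without BRM014 replicate 1 and -7.31 without replicate 2. It was also lost without DMSO replicate 1 (-1.81) or 2 (-2.44). STX1A exons overlap those of BUD23 on the opposite strand, so its reads and those of BUD23 cannot be told apart if the counts ignored strand. The vesicle SNARE VAMP2 rose in SK-N-DZ from 72.5 and 91.4 CPM to 124 and 130, by 0.63 (SE 0.22, adjusted p = 0.033). That call was lost without either BRM014 library or DMSO replicate 1 (0.47 to 0.66), and with no filter on low counts (adjusted p = 0.056). SNAP25, the partner of syntaxin on the cell membrane, was not called in any line with BRM014 by edgeR, at 0.85 (SE 0.31, adjusted p = 0.060; 0.042 with DESeq2) in IMR-32, 0.53 in KELLY and 0.34 in SK-N-DZ. VAMP1 and NSF were not called.

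Of the 4 vesicle proteins 1 was called in 1 line. Synapsin I (SYN1), which tethers synaptic vesicles, fell in IMR-32 from 17 and 17 counts to 1 and 1. The ratio of 9.64 has a 95% counting interval of 2.47 to 82.8 (edgeR adjusted p = 0.015), and the call was lost without either BRM014 library or DMSO replicate 2 (adjusted p = 0.063 to 0.11) and with the replicate block and the GC and length correction together (adjusted p = 0.053). SYN1 exons overlap those of ARAF on the opposite strand, with the same limit, as do those of RAB3A, SCAMP5, SYP and VAMP1 with other genes. In KELLY and SK-N-DZ SYN1 stood at -0.91 (SE 0.56) and 0.59 (SE 0.61). SYP, SV2A and SCAMP5 were not called. With the GC and length correction SV2A (0.80) and SCAMP5 (0.52) in IMR-32 and SCAMP5 (0.73) in SK-N-DZ were called higher, and SYT4 in IMR-32 lower (-0.60).

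Of the docking and priming genes only RAB3C, a small GTPase of secretory vesicles, was called in a BRM014 comparison. It rose in KELLY from 34.2 and 32.7 CPM to 90.8 and 56.3, by 1.13 (SE 0.33, edgeR adjusted p = 0.011). RAB3C lost the call without BRM014 replicate 1 (0.75), without either DMSO library (1.10 to 1.17) and with the GC and length correction (0.75, adjusted p = 0.14). RAB3A, RPH3A, UNC13A, RIMS2 and CADPS were not called. The priming factor UNC13A stood at -0.78 (SE 0.30, adjusted p = 0.053; 0.044 with DESeq2) in SK-N-DZ. RAB3A, a GTPase of synaptic vesicles, stood at -1.76 there (SE 0.76, adjusted p = 0.094; 0.041 with only the SK-N-DZ libraries). RPH3A in IMR-32 went from 22 counts to 1.

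Summed over the 13 cargo genes, the level went from 361 and 396 CPM to 308 and 284 in IMR-32, from 626 and 587 to 298 and 303 in KELLY, and from 423 and 397 to 214 and 207 in SK-N-DZ. Treated libraries lay below controls in each line. The sum over the 22 fusion genes went from 1908 and 1736 CPM to 1646 and 1625 in IMR-32, but from 1836 and 1809 to 2114 and 2023 in KELLY and from 1823 and 1875 to 2273 and 2172 in SK-N-DZ. Cargo as a share of fusion thus went from 34.1% and 32.5% to 14.1% and 15% in KELLY and from 23.2% and 21.2% to 9.42% and 9.53% in SK-N-DZ. In IMR-32 the shares were 18.9% and 22.8% with DMSO and 18.7% and 17.5% with BRM014, with little separation. SCG2, CHGA and GAL carried most of the drop. Without these 3, the cargo sum was 205 and 225 CPM against 209 and 182 in KELLY, 153 and 154 against 121 and 140 in SK-N-DZ, and 162 and 191 against 208 and 214 in IMR-32. SYT1 carried most of the rise of the fusion sum. Without SYT1, the fusion sum was 1706 and 1686 CPM with DMSO against 1729 and 1708 with BRM014 in KELLY. It was 1349 and 1389 against 1452 and 1441 in SK-N-DZ, and 1169 and 1047 against 1121 and 1087 in IMR-32. The sums carry no test, since their members were chosen with results known, and sums in CPM weight long transcripts.

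**Figure D4:**
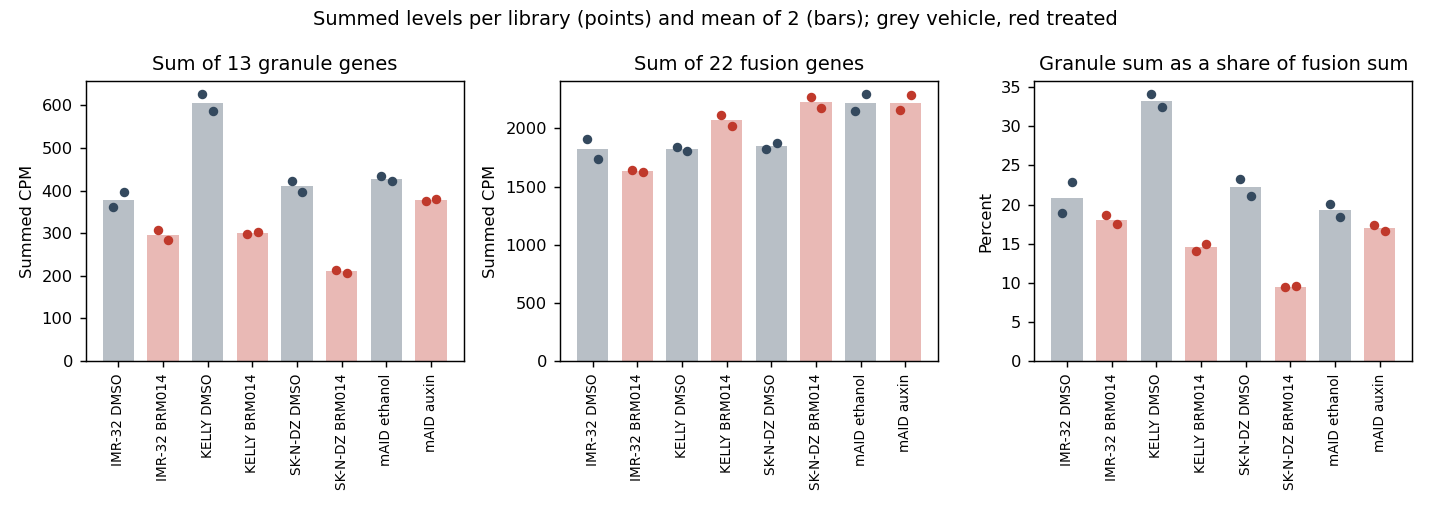
Summed CPM of the 13 cargo genes, of the 22 fusion genes, and the first as a percentage of the second (y axes, from 0) in each labelled library. Points are libraries, bars are means of 2, and treated groups are red. The cargo sum is lower with BRM014 in each line, and the share falls below 16% in KELLY and below 10% in SK-N-DZ.

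Other markers moved in the same libraries. In KELLY the summed mesenchymal and Schwann markers stood at 177 and 227 CPM with DMSO and 489 and 508 with BRM014, of which TWIST1 made up 140 and 190 and then 436 and 436, while SOX10 and ERBB3 had 0 to 2 counts per library. The sum was 350 and 367 against 460 and 385 in SK-N-DZ, and 434 and 454 against 360 and 369 in IMR-32. Of the 7 noradrenergic markers reported here 1 rose and 4 fell in KELLY, 3 rose and 3 fell in SK-N-DZ, and 0 rose and 2 fell in IMR-32. The catecholamine enzymes were among those that fell: TH went from 286 counts to 1 in KELLY and from 59 to 0 in SK-N-DZ, and DBH, itself a granule enzyme, from 635 to 88 and from 601 to 9. These are raw counts, not scaled for library size. The SK-N-DZ libraries held 724913 and 758288 gene counts with BRM014, against 1589230 and 1740475 with DMSO. Summed over these 7 markers, however, the SK-N-DZ level rose with BRM014, from 9505 and 9635 CPM to 11757 and 12527. The KELLY sum fell from 10168.5 and 8743 CPM to 8310 and 7795. For IMR-32 it fell from 7463 and 6714 CPM to 5703 and 5632. Among all genes, the share called in either direction was 11.6% for KELLY, 19.4% for SK-N-DZ and 12.8% for IMR-32. The part of these marker shifts in the results above was not tested. In bulk RNA fewer cells making a transcript and less of it per cell cannot be told apart.

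In the degron line with auxin, SYT17 and SNAP25 rose and no member fell by edgeR, fitted to all 16 labelled libraries, or by DESeq2, while 3 edgeR alternatives called SCG2 lower (6 members were lower at an unadjusted edgeR p under 0.05, CADPS, CHGB, RIMS2, SCG2, SYT11 and SYT4). DESeq2 gave no adjusted p for 9 of the 31 tested members here, so it could not call these in either direction. The edgeR calls were 2 of 31 (6.45%) against 2.19% of all genes (1.03% higher). SYT17 went from 22 CPM in both ethanol libraries to 61.3 and 62.5, by 1.49 on the log2 scale (SE 0.35, edgeR adjusted p = 0.0059). With BRM014 in the parental line it rose by 1.40, and the difference between these effects was -0.08 (SE 0.49), not called. Without any 1 of the 4 libraries the value for SYT17 was at least 1.47 and the adjusted p 0.057 to 0.11. SNAP25 (chromosome 20, 10218830 to 10307418) went from 31.0 and 44.0 CPM to 116 and 81.1, by 1.38 (SE 0.27, adjusted p = 0.00043), and was not called without ethanol replicate 1 (1.16, adjusted p = 0.069) or auxin replicate 1 (1.11, adjusted p = 0.079). The count of calls was therefore 0 without either of these 2 libraries. SCG2 was lower in both auxin libraries, at 126 and 121 CPM against 162 and 200 with ethanol. The value of -0.55 (SE 0.18, adjusted p = 0.098) was not called, but was with only these 4 libraries in the fit (adjusted p = 0.016) and with the GC and length correction, alone (-0.64, adjusted p = 0.037) or with the replicate block (-0.63, adjusted p = 0.030). GAL overlapped between groups (59.9 and 49.1 CPM against 34.4 and 67.6), and CPLX2 stood at 347 and 394 CPM with ethanol and 307 and 354 with auxin. The median log2 change was -0.50 over cargo genes (-0.32 over the 8 with enough counts for a fold), -0.12 over fusion genes and 0 over all genes.

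The BRM014 effect in IMR-32 and the auxin effect in its degron derivative differed for 3 of 31 members (9.68%), 1 of them higher with BRM014, against 1.95% of all genes, 1.06% higher. These effects have separate controls, but the vehicle and the cell line differ as well as the agent. CPLX2 fell with BRM014 and stood at -0.17 (SE 0.14) with auxin, a difference of -1.18 (SE 0.24, edgeR adjusted p = 0.00065). SYT1 fell with BRM014 and stood at 0.09 (SE 0.10) with auxin, a difference of -0.52 (SE 0.15, adjusted p = 0.037). RIMS2, which encodes a RIM scaffold of the release site, stood at 1.05 (SE 0.41) with BRM014 and -0.90 (SE 0.38) with auxin, neither called, and the difference was 1.95 (SE 0.56, adjusted p = 0.043). RIMS2 counts were 19 and 23 with DMSO, 24 and 26 with BRM014, 41 and 45 with ethanol, and 16 and 28 with auxin. CPLX2 alone kept its call whichever library was left out (-1.45 to -0.96). SYT1 lost it without any 1 library except auxin replicate 1 (-0.56 to -0.45) and RIMS2 without any 1 of the 8 (1.67 to 2.29). SCG2 (-0.75, SE 0.30) and GAL (-1.08, SE 0.54) were not called as different.

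Between the vehicle groups of the degron line and its parent, the share of members called was close to that of all genes. Of 31 members 2 (6.45%) were called between ethanol-treated SMARCA4-mAID and DMSO-treated IMR-32 cells, both higher in the degron line, against 6.16% of all genes, 2.67% higher and 3.49% lower. SYT4 was higher in the degron line, at 215 and 194 against 140 and 127 CPM (0.61, SE 0.16, edgeR adjusted p = 0.0071), and CPLX2 at 347 and 394 against 249 and 211 (0.69, SE 0.15, adjusted p = 0.00071). Without IMR-32 DMSO replicate 2 neither was called, and without either ethanol library 1 was. At an unadjusted edgeR p under 0.05, 4 members were higher in the degron line and 2 lower. The lower 2 were VIP (43 counts in IMR-32 and 11 in the degron line) and RPH3A (22 and 4). Tag, line history and vehicle cannot be told apart.

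Related genes outside the 35 were counted from 3 lists, to be read against all genes tested. Of all genes, SK-N-DZ had 9.88% called higher and 9.55% lower, KELLY 6.57% and 4.98%, IMR-32 6.26% and 6.57%, and auxin-treated cells 1.03% and 1.16%. Of 18 tested genes among 32 other neuropeptides and processing factors, none rose by edgeR, and 3 fell in KELLY, 1 fell in SK-N-DZ and 0 fell in IMR-32 or with auxin. At an unadjusted p under 0.05 there were 2 higher and 1 lower in IMR-32 and 1 higher with auxin, and DESeq2 was not tallied for these lists. In KELLY CARTPT, the precursor of the CART peptide, went from 162 counts to 5, a log2 change of -5.04 (SE 0.90, edgeR adjusted p = 1.0e-05). CRH, corticotropin-releasing hormone, went from 72 counts to 0, at least 24.9-fold lower. SYTL4, a granule docking protein, went from 11 counts to 0 in KELLY (at least 3.80-fold) and fell in SK-N-DZ from 81 and 117 counts to 16 and 24 (-1.13, SE 0.35). CARTPT and CRH had 0 counts in IMR-32, its degron derivative and SK-N-DZ.

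Of 39 tested genes among 49 other vesicle and fusion genes, 10 rose and 4 fell in SK-N-DZ, 7 rose and 3 fell in KELLY, 4 rose and 2 fell in IMR-32, and with auxin 1 rose and 0 fell. RIMS3, a short RIM paralogue, fell in all 3 lines, by 1.52, 2.31 and 2.82 on the log2 scale. SNAP91, a clathrin assembly protein of synaptic vesicles, rose in all 3, by 1.98, 2.16 and 2.14. SCAMP1, a vesicle carrier protein, rose by 0.95 in IMR-32, 0.64 in KELLY and 0.78 in SK-N-DZ. STXBP5, the SNARE regulator tomosyn, rose in KELLY (2.06) and SK-N-DZ (1.35). RIMBP2, a RIM-binding protein, fell by 1.60 in SK-N-DZ and rose by 0.70 in KELLY, and its effect differed among lines (edgeR interaction test, adjusted p = 5.8e-08). With auxin SYN2, a synapsin, rose by 0.68, and with BRM014 it rose by 0.40 in IMR-32 and fell by 0.63 in SK-N-DZ. Of 17 tested genes among 18 of the vacuolar ATPase, which acidifies granules and vesicles, 1 rose and 1 fell in IMR-32 (ATP6V0A1 by 0.54, and ATP6V0A2 at -0.63), 2 rose in SK-N-DZ (ATP6V1C1 by 0.78 and ATP6AP2 by 1.12), and 0 were called in KELLY or with auxin, also at an unadjusted p under 0.05.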

How the data were processed

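The deposited files hold whole-number counts per gene for the 18 libraries, which the authors made from reads that carry 4sU conversions. The submitters' processing notes name HISAT, HTSeq, DESeq2 and hg38, with no versions or roles. No source used here says how a read was called converted, which annotation was used or how strand was treated. Rows that name no gene were left out: reads outside features were 46.4% to 57.4% of labelled libraries, and ambiguous reads 1.11% to 1.71%.

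From these counts, edgeR 4.0.16 (R 4.3.3) filtered low genes (filterByExpr, 12853 genes kept), scaled by TMM and fitted a quasi-likelihood model with 1 mean per group to the 16 labelled libraries, which left 8 residual degrees of freedom. P-values were adjusted by Benjamini-Hochberg over all tested genes, and genes below 0.05 are called. CPM are counts per 1e6 of the TMM-scaled total of tested genes. Genes with few counts carry a ratio of summed counts with a 95% exact counting interval, and a group at 0 is set to a floor of 3 counts, both for counting error only. The model was tested on simulated data in which only genes with high counts were changed, so that test does not cover genes with few counts.

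The alternatives were DESeq2 1.42.0, its size factors in edgeR, no filter, fits of the compared groups alone, a replicate block, a GC and length correction (spline offset), both together, and leaving out each library. The labels number the replicates in each group. Same-numbered libraries did not deviate together (correlations -0.037 to 0.018). Pairs without a shared effect would give such values too, so this check cannot tell whether the numbers pair the samples. All 35 genes are described, with full statistics for those called, and of each related list up to 3 called genes with the smallest p in each comparison. Values of such a gene in another comparison were added after they were seen. The members and lists were chosen with earlier results of these data known. Positions and transcript lengths come from GENCODE 29 (hg38) and promoter sequences from RefSeq (GRCh38.p14). Some markers of these lists are not reported here.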

Additional observations from a re-analysis of the deposited data

Results flagged for a closer look

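The BRM014 effect differed among the 3 lines for SYT1 (edgeR interaction test, adjusted p = 1.31e-16), which rose in KELLY and SK-N-DZ and fell in IMR-32, and for SYT4 (adjusted p = 2.75e-07), which rose in SK-N-DZ. Both calls held with each library left out in turn.

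The BRM014 effect in IMR-32 differed from the auxin effect in the degron line for SYT1 (-0.516 on the log2 scale), CPLX2 (-1.18) and RIMS2 (1.95). The call for CPLX2 held in every alternative run, and those for SYT1 and RIMS2 did not. Agent, vehicle and cell line cannot be told apart in this contrast.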

How the results depend on the processing

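Of the 23 member calls in the 4 treated against vehicle comparisons, 13 held in every alternative, 10 were lost in at least 1, and 0 changed direction. The 13 are SCG2 and CPLX2 in all 3 lines, SYT17 in IMR-32, CHGA and GAL in KELLY, GAL and SYT4 in SK-N-DZ, and SYT1 in KELLY and SK-N-DZ. With each library left out in turn, the members called were 4 to 5 in IMR-32, 5 to 6 in KELLY, 6 in SK-N-DZ, 0 to 1 with auxin, 18 to 22 for DMSO levels, 1 to 2 for the inhibitor against the degron, and 0 to 2 for the degron line against its parent, where the libraries of the compared groups alone gave 4. DESeq2 found 4 members whose effect differed among lines, against 2, adding SYT17 (adjusted p = 0.034) and SYN1 (adjusted p = 0.047), and 4 other alternatives found 3, adding CHGA (adjusted p = 0.016 to 0.040). The replicate block used a number that the labels do not describe as a pairing. It gave 6, 6, 8 and 2 calls in the 4 comparisons, 23 for DMSO levels and 3 for effects that differ among lines. It also gave 3 for inhibitor against degron and 2 for degron line against parent. Over all genes, leaving out a library gave 904 to 1085 calls in IMR-32 against 1650, 859 to 1151 in KELLY against 1485, 1614 to 1856 in SK-N-DZ against 2498, 124 to 139 with auxin against 281, 131 to 174 for inhibitor against degron against 250, and 367 to 495 for degron line against parent against 792. The libraries of the compared groups alone gave 513 calls with auxin. Low counts limit the convertases, SCG5, VIP, CPLX1 and RPH3A, and the smaller BRM014 libraries of IMR-32 and SK-N-DZ limit weak genes there. The cause of the other shifts was not tested.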
